A study of Mus musculus with 17 samples.

Results

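Peritubular myoid and smooth muscle genes were followed across RNA-seq libraries of mouse spermatogenic cells. The group comprised *Acta2*, *Actg2*, *Myh11*, *Myl9*, *Tagln*, *Cnn1*, *Des*, *Dcn* and *Lum*, chosen by gene symbol, and all 9 were found among the 23282 genes of the deposited table. Peritubular myoid cells are flat, smooth muscle-like cells that surround the seminiferous tubule, contract to move its content and lay down part of its basement membrane. Their contraction rests on actin filaments, smooth muscle myosin and actin-binding proteins. *Dcn* and *Lum* encode proteoglycans of the collagen matrix that fibroblasts and other stromal cells make as well. Spermatogenic cells inside the tubule lie apart from these cells, and their own cytoskeleton uses mainly the cytoplasmic actins.

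Cells of 3 stages were sorted by fluorescence from dissociated testes after staining with a Hoechst dye and propidium iodide. The stages were spermatogonia (SPG) and spermatocytes entering meiosis, either pre-leptotene (PreL) or in leptotene and zygotene (LZ). They came from wildtype (WT) mice and from *Nat10*-SKO mice, of strain C57BL/6 in the labels and C57BL/6J in the study's methods. In the SKO mice (*Nat10* fl/-;*Stra8*-Cre) a Cre knocked into *Stra8*, a gene switched on in germ cells before meiosis, removes floxed exons of *Nat10*, the RNA acetyltransferase of the ac4C mark. The age of the mice used for RNA-seq, and whether WT mice carried the floxed allele or the Cre, is not given in the sources used here. There were 3 libraries in each group except WT LZ, which had 2. The Cre is driven in germ cells, so somatic cells of the SKO testis would keep the floxed allele beside the deleted one, and a bulk sorted sample holds whatever other cells the gate let through. In such samples more cells of a type and more RNA per cell cannot be told apart. The study counted the purity of its PreL and LZ sorts by immunofluorescence, without naming the genotype, and tabulated none for SPG.

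The libraries held from 5812380 reads (SKO LZ replicate 1) to 13820953 reads (WT LZ replicate 2), recovered from the deposited ERCC-calibrated counts, and levels are given as reads or as reads per 1000000 recovered reads (RPM). *Nat10* was lower in SKO than in WT in every stage without overlap, at 19.1 ± 4.01 against 34.8 ± 4.0 RPM in SPG, 13.1 ± 2.60 against 31.6 ± 7.34 in PreL and 7.79 ± 0.987 against 28.3 ± 0.379 in LZ (mean ± SD). Of all genes tested, 13.9%, 17.1% and 50% lay lower without overlap in SPG, PreL and LZ. By the test described below *Nat10* was called lower in PreL and LZ. In SPG it stayed under the fold threshold (log2 fold change -0.87, SE 0.24, limma adjusted p = 0.0326). The 8 germ cell markers (*Ddx4*, *Dazl* and others) summed to 4688 to 9900 RPM, and none was at 0 throughout a group. The 9 members together took 0.000423% to 0.0518% of the reads of a library. Nothing in the labels ties replicates to separate animals, so p-values measure the spread between these samples. PCR copies are not independent molecules, so the intervals below cover counting error only.

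On GRCm38 (mm10), the build the reads were mapped to, *Acta2* lies at chr19:34241090-34255590 (minus strand), *Actg2* at chr6:83512905-83536265 (minus), *Myh11* at chr16:14194535-14291372 (minus) and *Myl9* at chr2:156775420-156781658 (plus). *Tagln* lies at chr9:45929619-45936058 (minus), *Cnn1* at chr9:22099216-22109630 (plus) and *Des* at chr1:75360329-75368579 (plus). *Dcn* and *Lum* are near neighbours on the plus strand, at chr10:97479609-97518143 and chr10:97565128-97572703. All are protein-coding, and reads over all their exons are counted together.

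Promoter sequence was at hand for 4 of the members, *Acta2*, *Cnn1*, *Des* and *Myl9* (RefSeq, GRCm38.p6). Sites of *Acta2* and a stretch of *Myl9* are shown because these 2 genes moved most closely together among the contractile members and hold CArG boxes, the motif bound by serum response factor, which drives smooth muscle genes. Capitals mark CArG boxes, which read alike on both strands, either as the consensus or with at most 1 substitution in the A/T core.
Acta2 distal site: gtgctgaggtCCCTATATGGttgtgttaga
Acta2 proximal site: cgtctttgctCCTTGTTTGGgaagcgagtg
Myl9: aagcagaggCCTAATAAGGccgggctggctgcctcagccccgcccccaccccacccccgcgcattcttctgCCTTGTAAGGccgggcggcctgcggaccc
The *Acta2* sites are chr19:34255438-34255467 and chr19:34255388-34255417 on the minus strand, and their boxes, 84 to 75 and 34 to 25 bases before the RefSeq start of transcription, each carry 1 substitution. GENCODE, from which the gene positions above come, starts *Acta2* 217 bases farther upstream, so both sites lie inside its gene span, and starts *Myl9* 44 bases farther upstream. The *Myl9* stretch is chr2:156775294-156775393 on the plus strand, with a consensus box 161 to 152 bases before the RefSeq start and a box with 1 substitution 99 to 90 bases before it. No CArG box stood from 250 bases before to 50 bases after the RefSeq start of *Cnn1* or *Des*. Among 32851 promoters of this window, 1.63% held the consensus and 9.98% held a box with at most 1 substitution.

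In SPG, 5 of the 9 genes were higher in SKO, namely *Acta2*, *Myh11*, *Myl9*, *Dcn* and *Lum*, and none of the 7 that could be tested was called lower. Here and below a gene was tested where its mean over the compared libraries was 10 or more reads. It was called at a limma adjusted p-value under 0.05 with an absolute log2 fold change above 1, fitted over all genes on log2(rescaled value + 10), a scale that understates changes of low genes. Of all genes tested in SPG, 3.95% were called higher and 2.06% lower. The 5 genes called were also the 5 of the 7 tested whose SKO libraries all lay above the WT libraries in RPM, which held for 15.5% of all genes, and 13.9% lay lower without overlap. The median log2 fold change of the 7 members was 3.23, against 0.00136 over all genes.

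*Acta2* encodes smooth muscle alpha-actin, the standard marker of peritubular myoid cells. It had 1, 0 and 2 reads in WT SPG replicates 1, 2 and 3, and 462, 464 and 302 reads in SKO SPG replicates 1, 3 and 4. WT SPG was thus near 0 in each library, and SKO SPG was high in each. The level was 0.0810 ± 0.0832 RPM in WT and 38.3 ± 11.5 RPM in SKO (SD, n = 3 each), and the ratio of the pooled RPM was 460 (exact 95% interval 157 to 2230). Leaving out 1 library at a time gave ratios from 315 to 927, the highest without WT replicate 3. The log2 fold change was 5.46 (SE 0.44, limma adjusted p = 1.71e-05), and the call held under all 16 alternatives tried.

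*Myh11*, the smooth muscle myosin heavy chain, had 0, 3 and 3 reads in WT SPG and 33, 60 and 63 in SKO SPG. The ratio of the pooled RPM was 29.2 (exact 95% interval 13.1 to 80.9) and 18.8 without WT replicate 1, and the log2 fold change was 2.52 (SE 0.53, limma adjusted p = 0.00876). *Myl9*, a regulatory light chain of smooth muscle and non-muscle myosin, had 28, 18 and 9 reads in WT SPG and 300, 196 and 167 in SKO SPG. Both myosin genes were higher in each SKO library than in any WT library. For *Myl9* the level went from 1.48 ± 0.702 to 20.5 ± 6.89 RPM, a log2 fold change of 3.23 (SE 0.44, limma adjusted p = 0.000673).

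The remaining contractile members did not pass the test in SPG. *Tagln*, which encodes the actin-binding protein transgelin, had 23, 6 and 47 reads in WT and 21, 108 and 36 in SKO. Its groups overlapped, and the log2 fold change was 0.99 (SE 0.65, limma adjusted p = 0.369). The exons of *Tagln* overlap those of *Pcsk7* and of an antisense gene, and Smart-seq2 does not mark strand. *Des*, the intermediate filament protein of muscle, had 6, 0 and 1 reads in WT and 19, 7 and 18 in SKO, which did not overlap but were too few for the test, and its exons overlap an antisense gene. *Cnn1*, the calponin of differentiated smooth muscle, had at most 6 reads in any SPG library. Smooth muscle *Acta2* and *Myh11* were therefore accompanied in SKO SPG by few reads of *Des* and hardly any of *Cnn1*.

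The matrix members carried most of the reads of the group in SKO SPG. *Dcn* encodes decorin, a small leucine-rich proteoglycan that binds collagen fibrils, and *Lum* encodes its relative lumican. *Dcn* had 434, 5 and 474 reads in WT SPG and 4694, 3317 and 2803 in SKO SPG. WT replicate 2 stood far below the other WT libraries, and it also had the fewest reads of *Tagln* and *Actg2* in its group. Without it, the log2 fold change of *Dcn* was 3.14 (limma adjusted p = 6.36e-05), against 4.78 with it (SE 0.91, limma adjusted p = 0.00502). With no minimum of reads for a gene, the *Dcn* call was lost (limma adjusted p = 0.0627, in a range from 3.00e-09 to 0.0627). *Lum* was not detected in WT SPG, at 0 reads in each library, and had 58, 108 and 107 reads in SKO SPG, at least 102-fold higher against a floor of 3 reads over the WT group, and at least 65.9-fold without WT replicate 1. Its log2 fold change on the rescaled scale was 3.51 (SE 0.51, limma adjusted p = 0.000993).

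**Figure D1:**
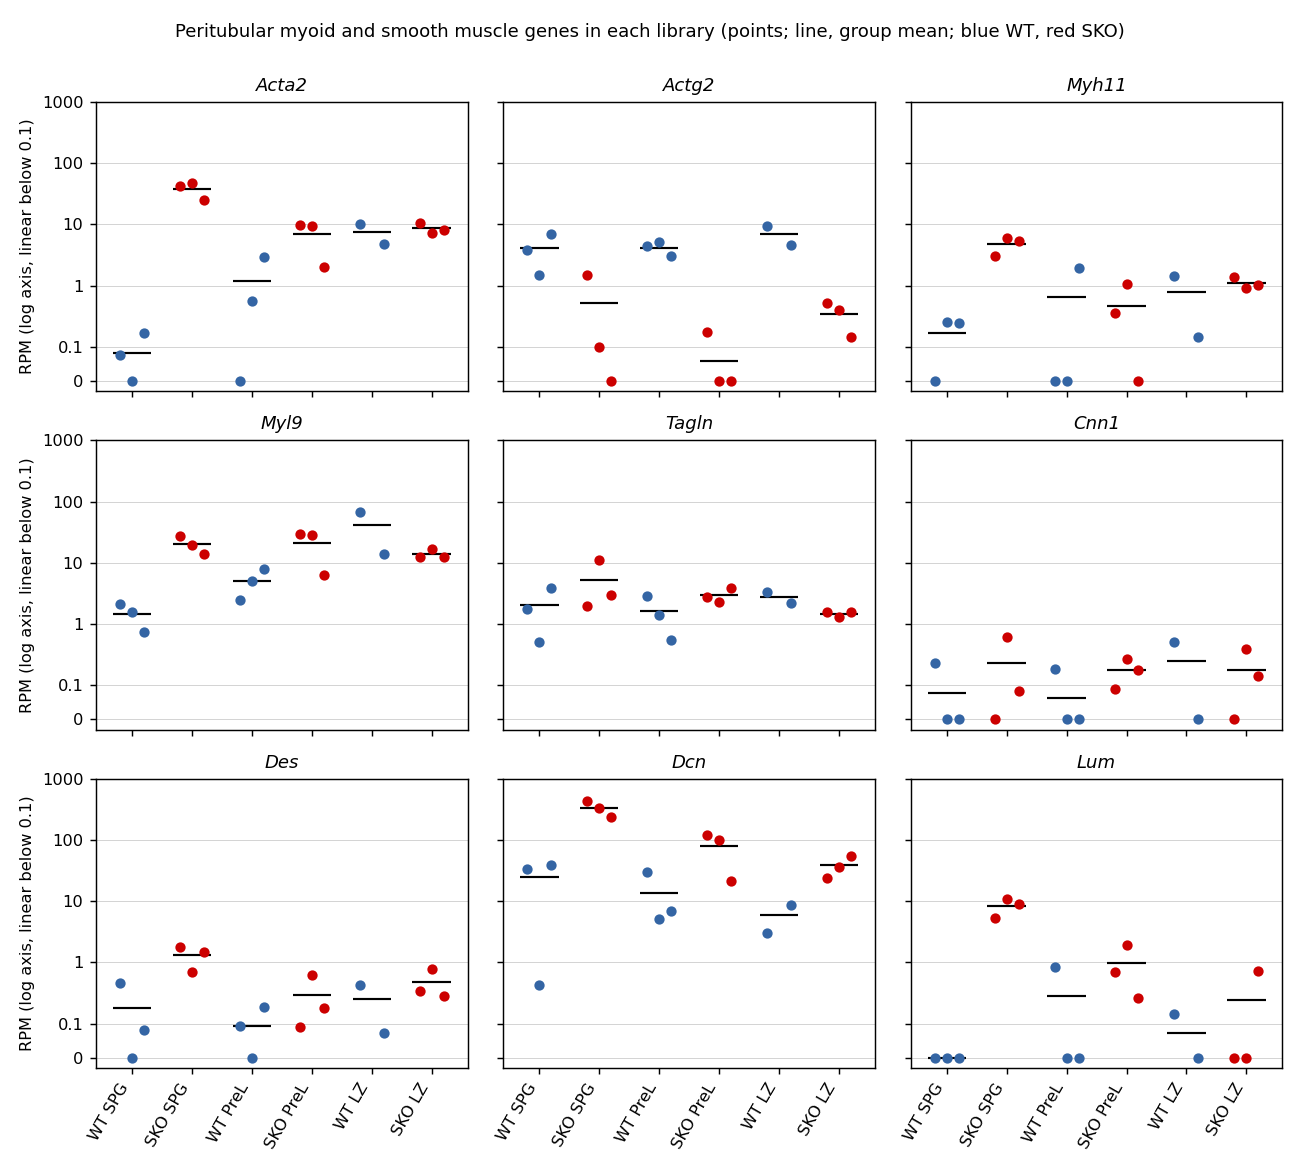
Level of each of the 9 genes in every library, in RPM (y axis, logarithmic above 0.1 and linear below), by group (x axis), with blue points for WT libraries, red points for SKO libraries and black lines for group means. *Acta2*, *Myl9*, *Myh11*, *Dcn* and *Lum* stand highest above WT in SKO SPG, whereas the SKO points of *Actg2* lie below the WT points in PreL and LZ.

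In PreL, *Dcn* was higher in SKO and *Actg2* lower, and the other 3 genes tested were not called. Over all genes tested in PreL, 5.32% were called higher and 5.83% lower. *Dcn* had 315, 54 and 74 reads in WT PreL replicates 1, 2 and 4, and 1349, 1124 and 245 in SKO PreL replicates 1, 2 and 3. SKO replicate 3 lay below WT replicate 1, so the groups overlapped. The levels were 13.8 ± 13.5 RPM in WT and 80.6 ± 51.9 RPM in SKO (SD, n = 3 each), and the log2 fold change was 2.52 (SE 0.68, limma adjusted p = 0.0332). This call was lost without WT replicate 2 (limma adjusted p = 0.130), WT replicate 4 (0.104), SKO replicate 1 (0.116) or SKO replicate 2 (0.102), without the filter (0.0555) and in 1 fit of all libraries (0.0804), within 0.00180 to 0.130 over its alternatives.

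*Acta2* had 0, 6 and 32 reads in WT PreL and 109, 105 and 23 in SKO PreL. The levels were 1.18 ± 1.59 and 7.02 ± 4.32 RPM, and SKO replicate 3 lay within the WT range. The log2 fold change of 2.27 did not pass (SE 0.76, limma adjusted p = 0.0679), and it passed without SKO replicate 3 (2.87, adjusted p = 0.0303), without WT replicate 4 (3.08, adjusted p = 0.0245) and on the calibrated values as deposited (2.75, adjusted p = 0.00896), in a range from 0.00231 to 0.225. *Myl9* had 26, 54 and 84 reads in WT PreL and 335, 315 and 70 in SKO PreL, again with SKO replicate 3 inside the WT range. Its log2 fold change was 1.73 (SE 0.58, limma adjusted p = 0.0690), and it passed without SKO replicate 3 (2.39, adjusted p = 0.00880, within 0.00214 to 0.231 over its alternatives). *Tagln* overlapped, at 31, 15 and 6 reads in WT and 31, 26 and 43 in SKO (limma adjusted p = 0.296). *Myh11*, *Cnn1*, *Des* and *Lum* were not tested, with at most 22 reads in any PreL library. Had the calibrated values been tested as deposited, 4 members would be called higher and 1 lower in PreL, where 26.3% of all genes were then higher and 4.46% lower, and 5 higher and 1 lower in SPG, where 3.11% were higher and 4.50% lower.

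In LZ, *Dcn* was again higher in SKO and *Actg2* lower, while *Acta2*, *Myl9* and *Tagln* were not called. In this stage 13.4% of all genes tested were called higher and 25.8% lower. *Dcn* had 42 and 120 reads in WT LZ replicates 2 and 3, and 141, 278 and 385 in SKO LZ replicates 1, 2 and 3, whose libraries were the shallowest of the series. In RPM every SKO library was above both WT libraries, at 38.8 ± 15.8 (n = 3) against 5.91 ± 4.06 (n = 2), a log2 fold change of 3.14 (SE 0.56, limma adjusted p = 0.00268). *Acta2* had 139 and 66 reads in WT LZ and 61, 56 and 57 in SKO LZ. The levels, 7.44 ± 3.70 and 8.69 ± 1.62 RPM, overlapped, and the log2 fold change was 0.66 (SE 0.38, limma adjusted p = 0.177). *Myl9* was high in WT LZ replicate 2, with 936 reads, and had 192 reads in replicate 3 and 71, 126 and 87 in SKO LZ. Its log2 fold change of -0.79 did not pass (SE 0.49, limma adjusted p = 0.210), was 0.099 without WT replicate 2 (adjusted p = 0.700) and passed at -1.73 without WT replicate 3 (adjusted p = 0.0120, within 0.0120 to 0.700 over its alternatives). *Tagln*, with 47 and 30 reads in WT and 9, 10 and 11 in SKO, did not overlap in RPM and was not called (log2 fold change -0.46, SE 0.41, limma adjusted p = 0.378). Of all genes tested in LZ, 50% lay lower and 16.9% higher in SKO with no overlap in RPM.

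*Actg2* encodes smooth muscle gamma-actin, the isoform of the gut and other visceral muscle. It was the only member called lower in SKO. In WT it had 49, 17 and 84 reads in SPG, 47, 54 and 33 in PreL, and 131 and 62 in LZ. In SKO it had 16, 1 and 0 reads in SPG, 2, 0 and 0 in PreL, and 3, 3 and 1 in LZ. Every SKO library of PreL and LZ lay below every WT library of its stage, whereas in SPG SKO replicate 1 reached WT replicate 2. In PreL no other member tested was free of overlap, where 17.1% of all genes lay lower and 19.9% higher without overlap. The ratio of WT to SKO, from pooled RPM, was 70.7 in PreL (exact 95% interval 19.2 to 589) and 20.4 in LZ (9.72 to 51.4). Without SKO PreL replicate 1, which held the only reads of its group, WT was at least 31.4-fold higher in PreL, without SKO PreL replicate 2 or 3 the ratio was 47.1, and without WT LZ replicate 2 the ratio in LZ was 13.2. The log2 fold changes of SKO against WT were -3.06 in PreL (SE 0.44, limma adjusted p = 0.00231) and -3.41 in LZ (SE 0.52, limma adjusted p = 0.00135), and both were called under every alternative in which *Actg2* was tested. In SPG the log2 fold change of -1.90 was not called (SE 0.63, limma adjusted p = 0.0712), and it was -2.40 without SKO replicate 1 (adjusted p = 0.0427, within 0.0107 to 0.292 over its alternatives).

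The actin isoforms can be set against each other within a library. *Actg2* made up 98%, 100% and 97.7% of the *Acta2* and *Actg2* reads in the WT SPG libraries, and 3.35%, 0.215% and 0% in the SKO SPG libraries. In PreL the shares were 100%, 90% and 50.8% in WT and 1.80%, 0% and 0% in SKO. In LZ they were 48.5% and 48.4% in WT, and 4.69%, 5.08% and 1.72% in SKO. The isoform that prevailed in the WT SPG libraries was therefore the minor one in every SKO library. The exact binomial intervals of the shares, widest at 0% to 14.8% for SKO PreL replicate 3 among the SKO libraries, did not reach the lowest WT bound of 38.1%. Only 0.326% of the 50-base windows of *Acta2* are shared with other genes, none of them with *Actg2*.

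**Figure D2:**
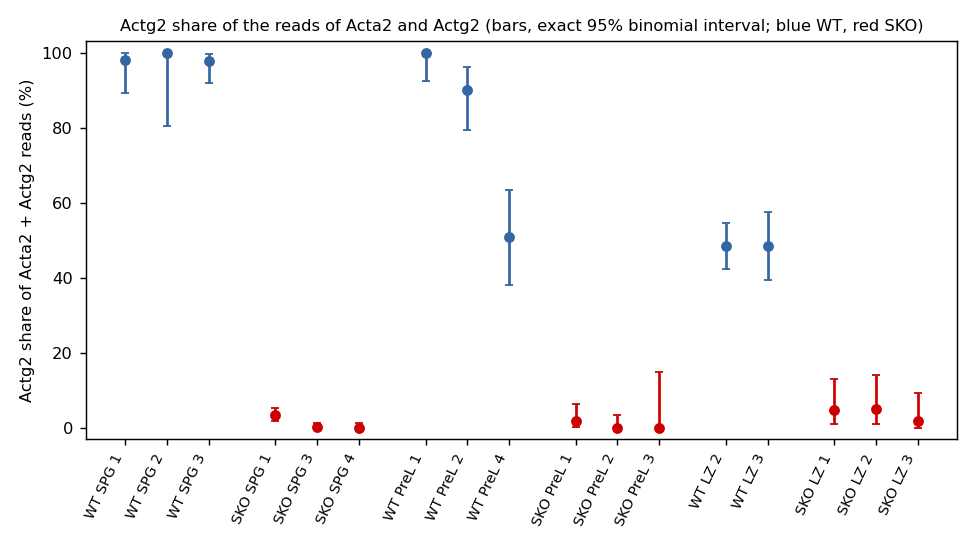
Share of *Actg2* in the summed reads of *Acta2* and *Actg2* (y axis, percent) in each library (x axis), with exact 95% binomial intervals as bars, WT in blue and SKO in red. WT libraries lie between 48.4% and 100%, and SKO libraries between 0% and 5.08%.

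**Figure D3:**
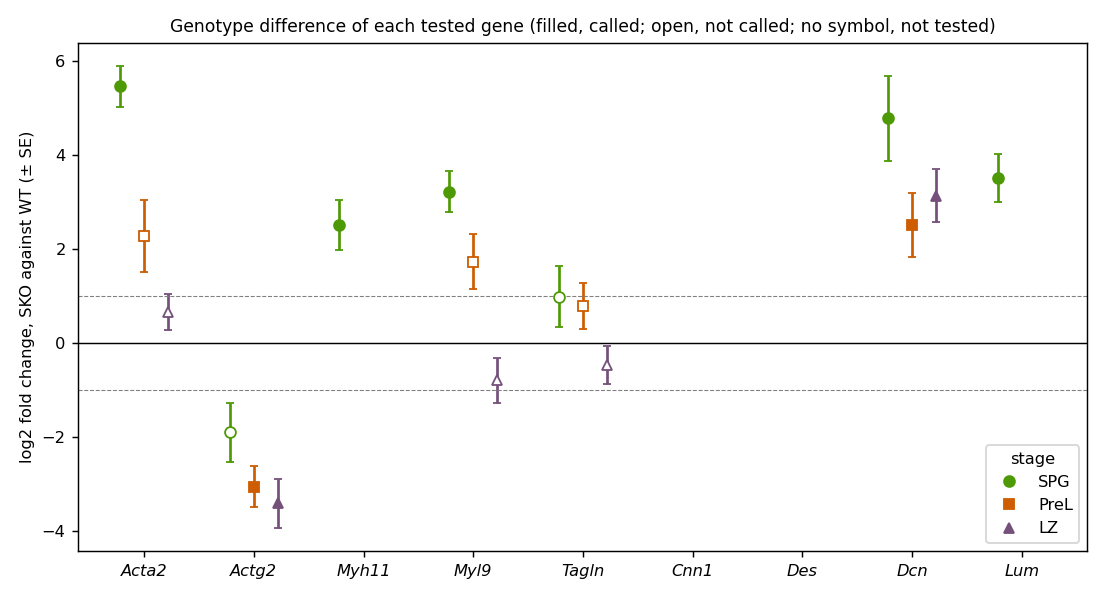
Log2 fold change of SKO against WT (y axis, with the SE as bars) for each gene (x axis) in SPG, PreL and LZ, with filled symbols for called genes, open symbols for genes tested and not called, and dashed lines at a log2 fold change of 1 and -1. *Acta2* and *Myl9* lie highest in SPG and lower in PreL and LZ, *Dcn* is filled in all 3 stages, and *Actg2* is below 0 in all 3.

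Across the stages of WT cells, *Acta2* and *Myl9* were higher in LZ than in PreL, and no member was called between SPG and PreL. In LZ against PreL of WT, 18.8% of all genes tested were called higher and 7.8% lower. The log2 fold change was 2.59 for *Acta2* (SE 0.88, limma adjusted p = 0.0468) and 2.48 for *Myl9* (SE 0.65, limma adjusted p = 0.0186), and both WT LZ libraries were above all WT PreL libraries in RPM, as in 38.7% of all genes, with 22.2% lower. The *Acta2* call held under 5 of 13 alternatives, with adjusted p from 0.000623 to 0.234, and was lost when WT PreL replicate 1 or 2 or either WT LZ library was left out. The *Myl9* call was lost without WT LZ replicate 2 (1.51, adjusted p = 0.183) and without WT PreL replicate 1 (2.01, adjusted p = 0.0610), within 0.000171 to 0.183. In WT PreL against SPG, 4 members were tested and 0 were called by limma, edgeR or DESeq2, with 1 at an unadjusted p under 0.05 (*Myl9*, log2 fold change 1.39, SE 0.52, limma adjusted p = 0.121), where 2.54% of all genes were called higher and 1.21% lower. *Acta2*, not tested there, went from 3 pooled reads to 38, a ratio of the pooled RPM of 14.5 (exact 95% interval 4.6 to 73.5). Of these 38 reads 32 came from WT PreL replicate 4 and 0 from replicate 1, the groups overlapped, and without replicate 4 the ratio was 3.44. It was 21.8 without WT PreL replicate 1 and 29.2 without WT SPG replicate 3.

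In SKO cells 4 members fell from SPG to PreL. *Acta2*, *Myh11*, *Dcn* and *Lum* were lower in PreL than in SPG out of 6 members tested, where 0.955% of all genes were called lower and 1.63% higher. The log2 fold changes were -2.54 for *Acta2* (SE 0.48, limma adjusted p = 0.0170), -2.44 for *Myh11* (SE 0.56, adjusted p = 0.0358), -2.32 for *Dcn* (SE 0.49, adjusted p = 0.0277) and -2.62 for *Lum* (SE 0.52, adjusted p = 0.0210). In each of the 4 genes all SKO PreL libraries lay below all SKO SPG libraries in RPM, as in 15.1% of all genes, with 13.7% higher. *Myl9* did not follow them, at 20.5 ± 6.89 RPM in SKO SPG and 21.3 ± 13.1 RPM in SKO PreL. The number of calls was 0 without SKO SPG replicate 3, 1 without SKO SPG replicate 1 or 4, and 2 without SKO PreL replicate 1. Lower calls over all genes also fell, to 0.416% without SKO SPG replicate 3, 0.327% without replicate 1 and 0.56% without replicate 4. Without SKO PreL replicate 1 they were 0.365%. In SKO LZ against PreL 4 members were tested and 0 were called by limma, edgeR or DESeq2, with 0 at an unadjusted p under 0.05, where 10.6% of all genes were called higher and 6.93% lower. On the calibrated values as deposited, 4 members were called higher and 0 lower in WT LZ against PreL, and 1 higher and 0 lower in SKO LZ against PreL. On that scaling 79.9% of all genes were called higher in WT LZ against PreL and 35.3% in SKO LZ against PreL.

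Whether the genotype difference itself changed between stages was tested by an interaction term over all 17 libraries. Between SPG and PreL, 0 of 7 members were called by limma, with 4 at an unadjusted p under 0.05, 0 called by edgeR and 1 by DESeq2 (*Acta2*), where 0.251% of all genes were called higher and 0.111% lower. The genotype difference of *Acta2* in PreL minus that in SPG was -3.77 on the log2 scale (SE 0.87, limma adjusted p = 0.0591, within 0.000892 to 0.186 over its alternatives), and that of *Lum* was -3.26 (SE 0.81, limma adjusted p = 0.0834). Between PreL and LZ, *Myl9* was called at -2.51 (SE 0.82, limma adjusted p = 0.0211), where 23.1% of all genes were called lower and 15.1% higher. This was lost without WT LZ replicate 2 (-1.58, adjusted p = 0.168), WT PreL replicate 1 (-2.07, adjusted p = 0.0568), SKO PreL replicate 1 (-2.14, adjusted p = 0.0611) or SKO PreL replicate 2 (-2.22, adjusted p = 0.0542), within 0.00216 to 0.168.

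Levels of different genes were compared per kilobase of exon (RPKM). In WT SPG the order was *Dcn* at 4.17 ± 3.59, *Actg2* at 2.61 ± 1.78, *Myl9* at 1.28 ± 0.604 and *Tagln* at 1.04 ± 0.862 RPKM, with overlap between each pair of neighbours. All other members were below 0.05 RPKM on average in that group. In SKO SPG *Dcn* led at 57.4 ± 17.0 RPKM without overlap with the next, followed by *Myl9* at 17.7 ± 5.93 and *Acta2* at 17.5 ± 5.21, which overlapped, then *Lum*, *Tagln*, *Myh11*, *Des*, *Actg2* and *Cnn1*. From PreL on *Myl9* led in both genotypes, at 4.41 RPKM in WT PreL, 18.4 in SKO PreL, 35.2 in WT LZ and 11.9 in SKO LZ, and it overlapped the next gene in PreL of both genotypes. *Actg2* came second in all 3 WT groups, and in every SKO group it lay below *Myl9*, *Dcn*, *Acta2* and *Tagln*.

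Other genes of the same functions were taken from lists written from general knowledge. Their counts stand beside the shares of all genes called, 3.95% higher and 2.06% lower in SPG, 5.32% and 5.83% in PreL, and 13.4% and 25.8% in LZ, and their medians beside those of all genes, 0.00136, 0.04 and -0.13. Among 24 other contractile and cytoskeletal smooth muscle genes, 20 were tested in SPG, and *Cald1*, *Cnn3*, *Synm*, *Tpm1* and *Tpm2* rose while none fell, with a median log2 fold change of 0.86. *Cald1*, which encodes caldesmon, an actin- and myosin-binding regulator of contraction, had at most 1 read in WT SPG and 157 to 270 in SKO SPG (log2 fold change 4.63, SE 0.48, limma adjusted p = 0.000127). *Tpm2*, a tropomyosin, had at most 3 reads in WT and 48 to 67 in SKO (log2 fold change 2.78, SE 0.52, limma adjusted p = 0.00447). In PreL *Cnn3* rose alone of 18 tested (median 0.56), a share close to the 5.32% of all genes. In LZ *Actn1*, *Aoc3* and *Cald1* rose and *Pln* fell of 20 tested (median 0.68), where 13.4% of all genes rose and 25.8% fell. *Pln*, which encodes phospholamban, had 14 and 57 reads in the WT LZ libraries and 0 in every SKO LZ library. Of the other actin genes, the cytoplasmic *Actb* and *Actg1* were tested in each stage and never called by limma, edgeR or DESeq2, between -0.74 and 0.97 in log2 fold change.

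No regulator of the smooth muscle programme was called in SPG. Of 12 on the list 7 were tested there, and 0 were called by limma, edgeR or DESeq2, with 2 at an unadjusted p under 0.05 and a median log2 fold change of 0.01. *Srf*, the factor of the CArG box, had a log2 fold change of -0.01 in SPG (SE 0.32, limma adjusted p = 0.987), and its coactivator *Mkl1* fell in LZ at -1.04 (SE 0.33, limma adjusted p = 0.0324). *Myocd*, the coactivator proper to muscle, was at 0 in every library of WT SPG, WT PreL and SKO LZ. In PreL *Tgfb2* and *Tgfbr2*, a ligand and a receptor of the TGF-beta pathway, rose of 10 tested (median 0.64), and *Tgfb2* had 0 reads in WT and 12 to 38 in SKO. In LZ 1 of 9 tested rose and 1 fell (median 0.65), and *Klf4* rose from 904 ± 135 (n = 2) to 3270 ± 255 (n = 3) on the rescaled scale (log2 fold change 1.85, limma adjusted p = 0.000209).

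Some relatives and partners of *Dcn* and *Lum* rose with them. Of 8 other small leucine-rich proteoglycans, *Bgn*, *Ogn* and *Prelp* rose in SPG of 6 tested (median 0.92), and *Bgn*, which encodes biglycan, went from at most 3 reads in WT to 183 to 229 in SKO (log2 fold change 4.42, SE 0.46, limma adjusted p = 0.000140). *Bgn* rose in PreL as well, alone of 5 tested (median 0.59), whereas in LZ *Ogn* and *Omd* rose and *Epyc* fell of 5 tested (median -0.10). Of 20 genes of the tubule wall and stromal matrix, 8 rose in SPG of 18 tested (median 1.92), 6 in PreL of 15 (median 1.47) and 5 in LZ of 15 (median 0.97), and none fell, against 3.95%, 5.32% and 13.4% of all genes called higher. *Col1a2*, a chain of type I collagen, went from 3 to 45 reads in WT SPG to 231 to 569 in SKO SPG (log2 fold change 3.79, SE 0.53, limma adjusted p = 0.000752). *Col3a1*, type III collagen, rose in all 3 stages, at 3.53 in LZ (SE 0.65, limma adjusted p = 0.00325).

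Several lists of markers of other cell types were also higher in SKO than in WT, and their part in the results was not tested. From SPG to PreL in SKO, where 4 members fell, these lists differed in direction. Of all genes tested there, 0.955% were called lower and 1.63% higher. There 0 of 7 Leydig markers (median log2 fold change 0.49) and 0 of 7 macrophage markers (-0.89) were called by limma, edgeR or DESeq2, with 0 and 3 at an unadjusted p under 0.05. Of 8 stromal markers 1 fell (median -0.53), and of 6 Sertoli markers 3 rose (median 3.24). Of 19 genes of the tubule wall and stromal matrix 1 fell (*Col1a1*, median -1.08), with 7 at an unadjusted p under 0.05. Of 6 other small leucine-rich proteoglycans 1 fell (*Bgn*, median -0.32). Of 20 other contractile and cytoskeletal genes 1 fell (*Cald1*) and 1 rose (*Vcl*, median -0.21). Stromal and fibroblast markers summed to 65.8 to 79.0 RPM in WT SPG and 168 to 318 in SKO SPG, and *Cd34*, *Gsn*, *Igf1*, *Pdgfra* and *Vim* rose, 5 of 8 tested. The 7 vascular mural cell markers were mostly too low for the test, and *Mcam*, the only one tested in SPG, stayed under the fold threshold (log2 fold change 0.83, SE 0.15, limma adjusted p = 0.00400), while *Abcc9* and *Mcam* rose in LZ. Of the endothelial markers 2, 3 and 1 were tested in SPG, PreL and LZ, and 0 were called by limma, with 1 in each stage at an unadjusted p under 0.05. DESeq2 called 1 in SPG and edgeR 0. *Cdh5*, an adhesion protein of endothelium, had at most 1 read in WT SPG and 6 to 34 in SKO SPG (log2 fold change 1.67, SE 0.61, limma adjusted p = 0.0989). The endothelial markers together did not exceed 9.42 RPM in any library. Leydig cell markers summed to 5.61 to 15.5 RPM in WT SPG and 62.5 to 225 in SKO SPG, with 5 of 7 higher in SPG, 6 of 7 in PreL and 5 of 7 in LZ. *Cyp17a1*, a steroid-synthesis enzyme, had 1 to 61 reads in WT SPG and 250 to 567 in SKO SPG. Macrophage markers summed to 7.85 to 13.9 RPM in WT SPG and 79.7 to 146 in SKO SPG, with 5 of 7 higher in SPG, 2 of 7 in PreL and 3 of 4 tested in LZ. *Cd74*, the invariant chain of antigen presentation, had 4 to 22 reads in WT SPG and 242 to 297 in SKO SPG. Of the 8 germ cell markers 0 were called in SPG by limma, edgeR or DESeq2, with 4 at an unadjusted p under 0.05, *Sycp3* rose in PreL, and in LZ *Kit* rose and *Spo11* fell.

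Within WT LZ and SKO PreL, Sertoli cell markers were high in the libraries in which *Myl9* was high. They summed to 1228 RPM in WT LZ replicate 2 and 246 RPM in replicate 3, where *Myl9* was at 67.7 and 14.0 RPM. In SKO PreL they summed to 707, 918 and 61.2 RPM in replicates 1, 2 and 3, where *Myl9* was at 29.8, 28.0 and 6.22 RPM. Leydig and macrophage markers were likewise lowest in SKO PreL replicate 3, at 40.4 and 22.1 RPM. The match was not seen in every group. In WT PreL replicates 1, 2 and 4 the Sertoli sums were 69.7, 69.3 and 71.3 RPM, beside *Myl9* at 2.43, 5.11 and 7.83 RPM. In SKO SPG replicates 1, 3 and 4 they were 75.9, 40.7 and 89.9 RPM, beside *Myl9* at 27.8, 19.8 and 14.0 RPM. SKO LZ replicate 2 was highest of its group in both, at 595 and 16.6 RPM, and so was WT SPG replicate 1, at 37.6 and 2.15 RPM. In SPG the Sertoli list was low, from 24.3 to 37.6 RPM in WT and 40.7 to 89.9 RPM in SKO, and 1 of 5 tested was called (*Clu*), against *Sox9* and *Wt1* of 6 in PreL and *Rhox8* of 6 in LZ. *Myl9* is expressed outside muscle as well, and the part of Sertoli cells in its values was not tested.

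Spermatid markers, like *Actg2*, were lower in SKO than in WT. *Prm1*, *Prm2*, *Tnp1*, *Tnp2* and *Acrv1* summed to 89.8 to 274.5 RPM in WT SPG, 535 to 902 in WT PreL and 530 to 916 in WT LZ. In SKO they summed to 0.101 to 1.01 RPM in SPG, 2.58 to 4.62 in PreL and 2.58 to 3.15 in LZ, and *Acrv1* was at 0 in all SKO SPG and SKO LZ libraries. All 5 fell in SPG and in LZ, and 4 in PreL. From SPG to PreL in WT, 4 of the 5 were called higher (median log2 fold change 2.28), where 2.54% of all genes were. *Actg2* was not called there (log2 fold change 0.23, SE 0.50, limma adjusted p = 0.815). From PreL to LZ in WT, *Actg2* was not called either (log2 fold change 0.48, SE 0.48, limma adjusted p = 0.458). Of the 5 spermatid markers 0 were called in that step (median -0.26), where 18.8% of all genes were called higher and 7.8% lower. In WT SPG replicates 1, 2 and 3 *Actg2* was at 3.76, 1.47 and 6.98 RPM, with spermatid markers at 274.5, 89.8 and 190 RPM. In SKO SPG replicates 1, 3 and 4 *Actg2* was at 1.48, 0.101 and 0 RPM, with spermatid markers at 0.65, 0.101 and 1.01 RPM. The part of spermatid RNA in the *Actg2* values was not tested.

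**Figure D4:**
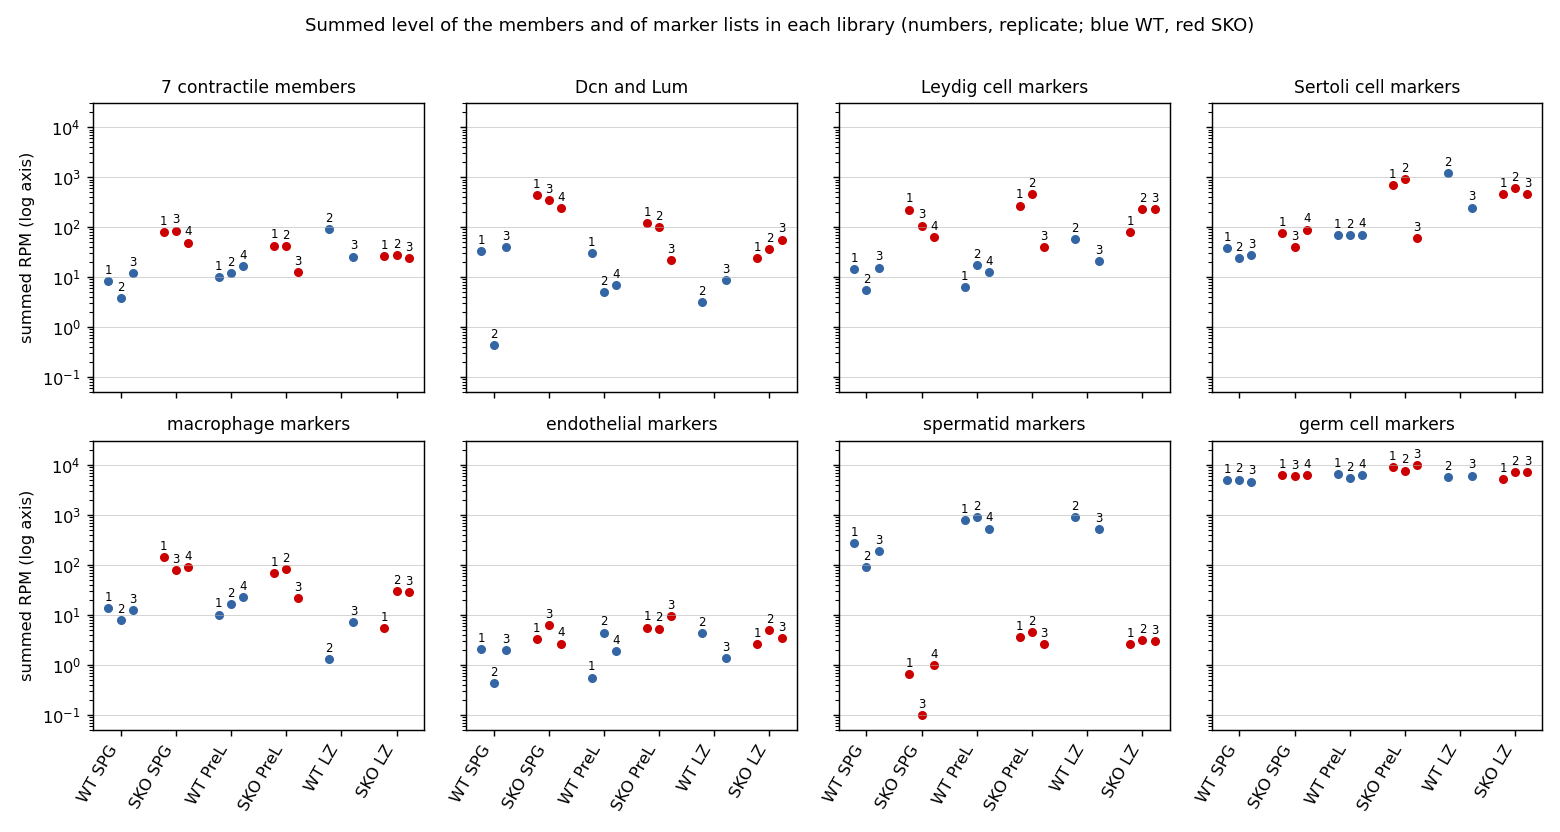
Summed level in RPM (y axis, logarithmic) of the 7 contractile members, of *Dcn* and *Lum*, and of the marker lists of Leydig, Sertoli, macrophage, endothelial, spermatid and germ cells in each library, by group (x axis), with the replicate number above each point, WT in blue and SKO in red. SKO PreL replicate 3 lies low and WT LZ replicate 2 high in both the contractile and the Sertoli panels, and the spermatid list is above 89 RPM in every WT library and below 5 RPM in every SKO library.

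The members varied together only in part over the 17 libraries, which differ in depth, stage and genotype. The Pearson correlation of log2(rescaled value + 10) was 0.87 between *Acta2* and *Myl9*, 0.83 between *Acta2* and *Myh11* and 0.77 between *Dcn* and *Lum*, whereas *Actg2* correlated negatively with every other member, from -0.26 to -0.58. The genes most like *Acta2* among 10252 genes compared were *Cald1* (0.957), *Ctgf* (0.940), *Mrc1* (0.905), *Col4a1* (0.900) and *Igfbp6* (0.898). For *Myl9* they were *Cd302* (0.942), *Folr1* (0.928), *Acsbg1* (0.928), *Mmd2* (0.908) and *Sparc* (0.908). For *Dcn* they were *Serping1* (0.914), *Atg10* (0.910), *Col1a2* (0.906), *Apoe* (0.902) and *Ifitm2* (0.894). The 3 lists shared no gene, but each holds only the top 5 of these genes, so this cannot show that the members differed. For *Actg2*, added after its values were seen, they were *Ccdc70* (0.941), *Iqcf3* (0.941), *1700129C05Rik* (0.933), *Ccdc54* (0.933) and *1700001O22Rik* (0.932).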

How the data were processed

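RNA-seq was performed on 17 Smart-seq2 libraries. The submitters' processing notes name TopHat2 2.1.1, HTSeq 0.11.2, Cufflinks 2.2.1 and DESeq2. The authors mapped trimmed reads to mm10, counted unique reads per gene and scaled each library by its ERCC spike-in and cell input. The deposited signal values are these ERCC-calibrated counts. Within a library every value was a whole multiple of the smallest (tolerance 0.01), and dividing by it recovered the reads. Calibration factors ran from 1 to 10.4.

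The libraries compared were rescaled by their median-of-ratios size factors, and log2(value + 10) was tested with limma 3.58.1 (trend, two-sided, Benjamini-Hochberg over all genes) in R 4.3.3. Interactions were called at an adjusted p under 0.05 with no fold threshold. edgeR 4.0.16 and DESeq2 1.42.0 on the recovered reads, other scalings, pseudocounts of 1 and 50, other filters, a replicate block, 1 fit of all libraries and leaving out each library were alternatives. The limma fits of every comparison, and edgeR and DESeq2 for SKO against WT in SPG, were tested on simulated counts. The other steps were not. Exon lengths, overlaps and shared sequence came from GENCODE for GRCm38. RPM and RPKM were computed from recovered reads.

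The members and lists were chosen with earlier results of these data known. Named were all members, *Nat10*, genes from among the 2 of each list with the largest change per stage (not all are printed), and the 5 genes of 50 or more mean reads most correlated with *Acta2*, *Myl9* and *Dcn*. Other list genes were named because they were called. *Srf*, *Mkl1*, *Myocd*, *Ddx4* and *Dazl* were picked by function after values were seen. The ratios without single libraries were also added then.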

Additional observations from a re-analysis of the deposited data

Results flagged for a closer look

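The genotype difference of *Myl9* was the only difference between stages that the interaction term called among the members. It was 1.73 in PreL and -0.79 in LZ on the log2 scale, neither of which was called on its own, and the difference between them was -2.51 (limma adjusted p = 0.0211). This was 1 of 7 members tested, where 23.1% of all genes were called lower and 15.1% higher, so the call is not particular to the members. *Myl9* had 26, 54 and 84 reads in WT PreL, 335, 315 and 70 in SKO PreL, 936 and 192 in WT LZ, and 71, 126 and 87 in SKO LZ. Without WT LZ replicate 2 the difference was -1.58 (limma adjusted p = 0.168). The Sertoli cell markers were highest in that library, and their part was not tested.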

How the results depend on the processing

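Counts of called members moved by over 1.5 times as follows. With ERCC-calibrated values not rescaled, PreL had 4 higher against 1, SPG 1 lower against 0, WT LZ against PreL 4 higher against 2, SKO LZ against PreL 1 higher against 0, and the interactions 2 lower against 0 (PreL and SPG) and 3 against 1 (LZ and PreL). That scaling moved the median log2 fold change of all genes in SKO against WT to -0.25 in SPG, 0.73 in PreL and -0.25 in LZ, from 0.00136, 0.04 and -0.13, and the share of lower calls to 59.2%, 14.5% and 71.2%, from 34.3%, 52.2% and 65.8%. On it 79.9% of all genes were higher in WT LZ against PreL, 35.3% higher in SKO LZ against PreL, and 1.09% and 48.6% lower in the interactions. With a mean of at least 50 reads, SPG had 3 higher, and PreL and LZ had 0 lower, since fewer members were tested, and WT LZ against PreL had 1 higher. Of all genes, 3.65% were then higher in SPG, 3.98% lower in PreL, 26.1% lower in LZ and 19.3% higher in WT LZ against PreL. Without a filter, PreL had 0 higher, WT LZ against PreL 1 higher, and SKO PreL against SPG 1 lower against 4. The shares of all genes were then 3.36% higher, 12.8% higher and 0.348% lower. WT LZ against PreL also had 1 higher with a pseudocount of 1, edgeR or DESeq2, where 15.0%, 16.2% and 18.8% of all genes were higher. DESeq2 gave 2 higher in PreL and 1 lower in the PreL and SPG interaction, which was 2 with a pseudocount of 50. The shares of all genes were 6.88%, 1.40% and 0.458%. In 1 fit of all libraries PreL had 2 higher and SPG 1 lower, with 6.26% and 3.76% of all genes.

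Leaving out 1 library at a time gave 0 to 3 higher in PreL, 0 to 1 lower in SPG, 1 to 2 lower in LZ, 0 to 2 higher in WT LZ against PreL, 0 to 4 lower in SKO PreL against SPG, 0 to 1 lower in SKO LZ against PreL, and 0 to 1 and 0 to 2 lower in the interactions. The SPG count stayed at 5 higher. The shares of all genes called moved in the same settings. They were 1.38% to 8.0% higher in PreL, 2.37% to 3.29% higher and 0.918% to 2.165% lower in SPG. They were 0.327% to 0.911% lower in SKO PreL against SPG, and 5.40% to 8.03% lower in SKO LZ against PreL. In the PreL and SPG interaction 0.0074% to 0.18% were lower, and in LZ without single SKO libraries 23.7% to 24.2%. Of 465 alternatives of 29 single-gene results, 401 kept direction and call, 42 lost and 21 gained a call. *Myl9* in LZ reversed, from -1.73 to 0.099 over the libraries left out. Apart from the alternative's own construction, the cause was not tested.

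Deviations of same-numbered libraries from their group means correlated from -0.186 to 0.157 over 14 pairs. With so few libraries per group, this cannot show whether same-numbered samples were prepared together. With the replicate block PreL had 3 higher, and SKO PreL against SPG 2 lower, with 9.56% and 0.295% of all genes. The block could not be fitted for WT LZ against PreL, which left no residual degrees of freedom. Low reads limit *Cnn1* and *Des*, which passed the filter in no comparison of genotypes.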

Other observations

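Of the 7 immediate early genes, transcription factors that stimuli induce within minutes, all rose in SPG, 4 in PreL and 5 in LZ in SKO against WT. Of all genes tested, 3.95%, 5.32% and 13.4% were called higher in these stages. *Omd*, which encodes the proteoglycan osteomodulin, was called in LZ alone of the 3 stages. It had 2306 and 2326 reads in the WT LZ libraries and 10021 to 11176 in SKO LZ (log2 fold change 3.62, SE 0.27, limma adjusted p = 6.3e-05), with log2 fold changes of -0.19 in SPG and -0.16 in PreL, neither of which was called.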
